A study of Mus musculus with 6 samples.

Results

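Mature beta cells and double negative cells of mouse islets were compared by RNA sequencing, in 2 libraries of each and so in 4 of the 6 libraries of the series. All mice were adult offspring that carried 2 reporters, a nuclear mCherry driven by the Ins1 promoter (Ins1-H2b-mCherry) and an eGFP driven by the Ucn3 promoter (Ucn3-eGFP). Mature beta cells were sorted for both colours, and double negative cells for neither. The latter sort is meant to leave the islet cells other than beta cells. The remaining population, positive for mCherry alone and labelled immature, was left out of the fit. Islets of several mice were pooled for each library, kept overnight in medium with glucose and serum, and dissociated with trypsin, so both groups share the reporters, the culture and the enzyme. The sort follows what 2 transgenes report, not the proteins themselves, and no sample label gives a strain or an exact age. Libraries of replicate 1 are labelled male and those of replicate 2 female, although the series text names female mice only. Xist was present in all 4 libraries, at 36.5 and 21.4 RPKM in mature and 38.9 and 47.6 RPKM in double negative cells, and 4 Y-linked genes had between 0 and 13 reads, so the 2 libraries labelled male went against that label and no comparison by sex was made.

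Of 46959 genes in the table, 12089 reached an RPKM of 1 in 2 or more of these libraries and were tested. RPKM is a read count scaled by gene length and by library depth. The steps between low values correspond to 23718091 and 26824380 reads in the mature and 22063880 and 22731664 reads in the double negative libraries, which makes 1 read in a gene of 1 kb worth between 0.0373 and 0.0453 RPKM. Replicates resembled each other far more than the groups did: across genes, which are not independent replicates, Pearson's r of log2(RPKM + 1) was 0.9971 between the mature and 0.9902 between the double negative libraries, against 0.845 to 0.852 between libraries of different groups. Double negative replicate 2 stood apart from replicate 1 in a pair of respects. It held about double the RNA of most genes nearly confined to mature cells, and about 8 times the RNA of acinar enzymes. Values without this library are given where they bear on a result. Differences are given as mature minus double negative on the log2(RPKM + 1) scale, which understates changes of low genes, with a standard error (SE) and limma's Benjamini-Hochberg adjusted p. A gene is said to have risen (higher in mature cells) or fallen (lower) only where that p was under 0.05.

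The islet is a small endocrine organ in which beta cells make insulin, alpha cells glucagon, delta cells somatostatin and PP cells pancreatic polypeptide. All of them descend from a common progenitor and share a machinery of prohormone cleavage, dense-core granules and calcium-triggered release, while each hormone gene is held by its own set of transcription factors. Insulin and glucagon act against each other on blood glucose, and the cells signal to each other inside the islet through hormones, peptides and their receptors. A preparation without beta cells also holds the vessel, stromal and immune cells of the islet.

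The 2 markers of the comparison were Ins2, the main mouse insulin gene (ENSMUSG00000000215.11, chromosome 7, 142678656 to 142743381, minus strand, GRCm38), and Gcg, which encodes the glucagon precursor (ENSMUSG00000000394.15, chromosome 2, 62474530 to 62483650, minus strand, GRCm38). The annotated model of Ins2 is a long one. With the length of that model, Ins2 came to 32591.1 and 71934.9 reads in double negative cells, and whole reads cannot be judged at such counts. The length behind its RPKM could therefore not be checked here. That bears on its level and its share of summed RPKM but not on the ratio between groups. Ins2 measured 158137 and 170715 RPKM in mature cells against 1126 and 2412 RPKM in double negative cells. Gcg measured 532 and 723 RPKM in mature cells against 172629 and 166608 RPKM in double negative cells. Neither gene overlapped between the groups, so each marker separated the sorted populations in the direction of their labels. Ins2 was 93.0-fold higher in mature cells, a log2 difference of 6.64 (SE 0.34) with a limma adjusted p = 7.2e-06, and Gcg was 270.4-fold lower, a difference of -8.09 (SE 0.17) with a limma adjusted p = 3.2e-07. The difference of Ins2 was 6.09 without double negative replicate 1 and 7.19 without double negative replicate 2. Reads of a bulk sample do not show whether a low value comes from few cells of a type or from little RNA per cell, and the 2 cannot be told apart here. Each marker filled a large part of its own libraries: Ins2 made up 33.2 and 34.8% of summed RPKM in mature and 0.263 and 0.563% in double negative cells, and Gcg 0.112 and 0.147% in mature and 40.3 and 38.9% in double negative cells.

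The genes that drive the reporters followed the sort. Ins1, the second mouse insulin gene, measured 46606 and 49447 RPKM in mature cells against 336 and 735 RPKM in double negative cells, a difference of 6.59 (SE 0.33) with a limma adjusted p = 6.9e-06. Ucn3, the peptide urocortin 3 that beta cells release onto delta cells, measured 93.9 and 97.7 RPKM in mature cells against 1.07 and 2.83 RPKM in double negative cells, a difference of 5.10 (SE 0.25) with a limma adjusted p = 6.7e-06. Both were far below their mature level but present in double negative cells, and in each case replicate 2 was higher than replicate 1, for Ucn3 with 35 and 95 reads. The sort used these promoters, so the direction of both genes checks the labels and is no finding.

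Sequence just upstream of 4 hormone genes is shown because these genes separated the populations widely and are each held by cell-type-specific factors. Insulin and amylin (Iapp) are products of beta cells, glucagon of alpha cells and somatostatin (Sst) of delta cells. Each line gives the 250 bases before the annotated start in RefSeq's GRCm38.p6, read 5′ to 3′ on the gene's strand. Capitals mark TAAT or ATTA (the core bound by homeodomain factors such as Pdx1, Nkx6-1 and Pax6), CATCTG or CAGATG (an E box of the kind bound by Neurod1 with its partners) and TGACGTCA (the cAMP response element). Neighbouring matches can overlap, as ATTA and TAAT do in Iapp.
Ins1 chr19:52264047-52264296 (+): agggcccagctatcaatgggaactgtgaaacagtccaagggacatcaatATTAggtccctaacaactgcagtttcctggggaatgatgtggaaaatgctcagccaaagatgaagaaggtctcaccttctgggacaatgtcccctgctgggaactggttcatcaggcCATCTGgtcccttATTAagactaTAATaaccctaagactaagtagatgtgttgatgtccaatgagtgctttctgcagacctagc
Iapp chr6:142298175-142298424 (+): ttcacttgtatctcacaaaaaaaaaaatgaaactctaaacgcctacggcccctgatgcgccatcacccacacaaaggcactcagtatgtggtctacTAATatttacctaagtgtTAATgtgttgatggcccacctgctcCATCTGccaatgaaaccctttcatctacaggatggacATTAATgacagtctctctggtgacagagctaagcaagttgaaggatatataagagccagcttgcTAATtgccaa
Gcg chr2:62483654-62483903 (-): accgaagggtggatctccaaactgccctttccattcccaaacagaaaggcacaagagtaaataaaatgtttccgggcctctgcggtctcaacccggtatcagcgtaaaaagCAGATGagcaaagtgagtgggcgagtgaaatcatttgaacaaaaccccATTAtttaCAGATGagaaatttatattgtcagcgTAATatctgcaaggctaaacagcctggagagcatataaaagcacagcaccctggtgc
Sst chr16:23890845-23891094 (-): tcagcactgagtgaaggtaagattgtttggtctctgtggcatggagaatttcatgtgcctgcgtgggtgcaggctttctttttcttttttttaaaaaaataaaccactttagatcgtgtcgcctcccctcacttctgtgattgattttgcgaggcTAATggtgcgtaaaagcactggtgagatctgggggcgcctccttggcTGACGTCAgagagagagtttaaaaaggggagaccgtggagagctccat
Matches of the homeodomain core numbered 3 in Ins1, 5 in Iapp, 2 in Gcg and 1 in Sst, and 54.9% of all 32851 promoter windows of this length hold at least 1 on either strand. The E box occurred in Ins1 and Iapp with 1 match each and in Gcg with 2, against 14.4% of all windows. The cAMP response element was found in the Sst window alone of these 4, at bases -48 to -41 from the start, and 1.5% of all windows hold it. These matches describe letters in the windows and are no evidence of binding.

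Islet hormones and peptides split along cell type. Of 25 listed genes 18 were tested, of which 9 rose, 7 fell and 2 did not pass, where 31.4% of all tested genes rose and 39.7% fell, shares that are the background of every such count given here, so the counts of the list were not far from the background while its differences were among the widest measured. The median difference of the list was 0.37 and that of all tested genes -0.06. The rises include Ins1 and Ucn3, whose promoters drive the reporters of the sort, and the marker Ins2. The falls include the marker Gcg. The directions of these genes follow the sort and are no finding. Iapp (ENSMUSG00000041681.2, chromosome 6, 142298423 to 142303961, plus strand, GRCm38), the amyloid peptide co-secreted with insulin, measured 39604 and 40957 RPKM in mature cells against 3208 and 3802 RPKM in double negative cells, a difference of 3.53 (SE 0.14). The populations did not overlap for Iapp, yet double negative cells held far more of it relative to mature cells than they did of Ins2. Npy, the appetite peptide neuropeptide Y, measured 106 and 112 RPKM in mature cells against 2.08 and 3.65 RPKM in double negative cells, with no overlap and a difference of 4.86 (SE 0.17). The dynorphin precursor gene Pdyn measured 335 and 324 RPKM in mature cells against 46.7 and 49.2 RPKM in double negative cells and rose by 2.75. Smaller rises were those of the tachykinin gene Tac1 by 1.53, of Vgf, a granule peptide precursor, by 1.10 and of neuromedin B (Nmb) by 0.74.

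Hormones of the other islet cells were among the largest falls. Sst measured 211 and 327 RPKM in mature cells against 19746 and 21309 RPKM in double negative cells, a difference of -6.28 (SE 0.19). Ppy, pancreatic polypeptide, measured 122 and 93.4 RPKM in mature cells against 13237 and 14546 RPKM in double negative cells, a difference of -7.01 (SE 0.13), and Pyy, peptide YY, measured 48.7 and 62.1 RPKM in mature cells against 5909.9 and 5873 RPKM in double negative cells, a difference of -6.72 (SE 0.11). For each of them the double negative replicates lay close together, and both were far above either mature library. Ghrl, the ghrelin precursor of epsilon cells, was scarce, at 0.391 and 0.138 RPKM in mature cells against 3.86 and 8.24 RPKM in double negative cells, a difference of -2.41 (SE 0.28), and the 2 double negative libraries differed from each other as well. Gal, the precursor of galanin, and Nts, that of neurotensin, fell as well, with differences of -3.30 and -3.76.

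**Figure D1:**
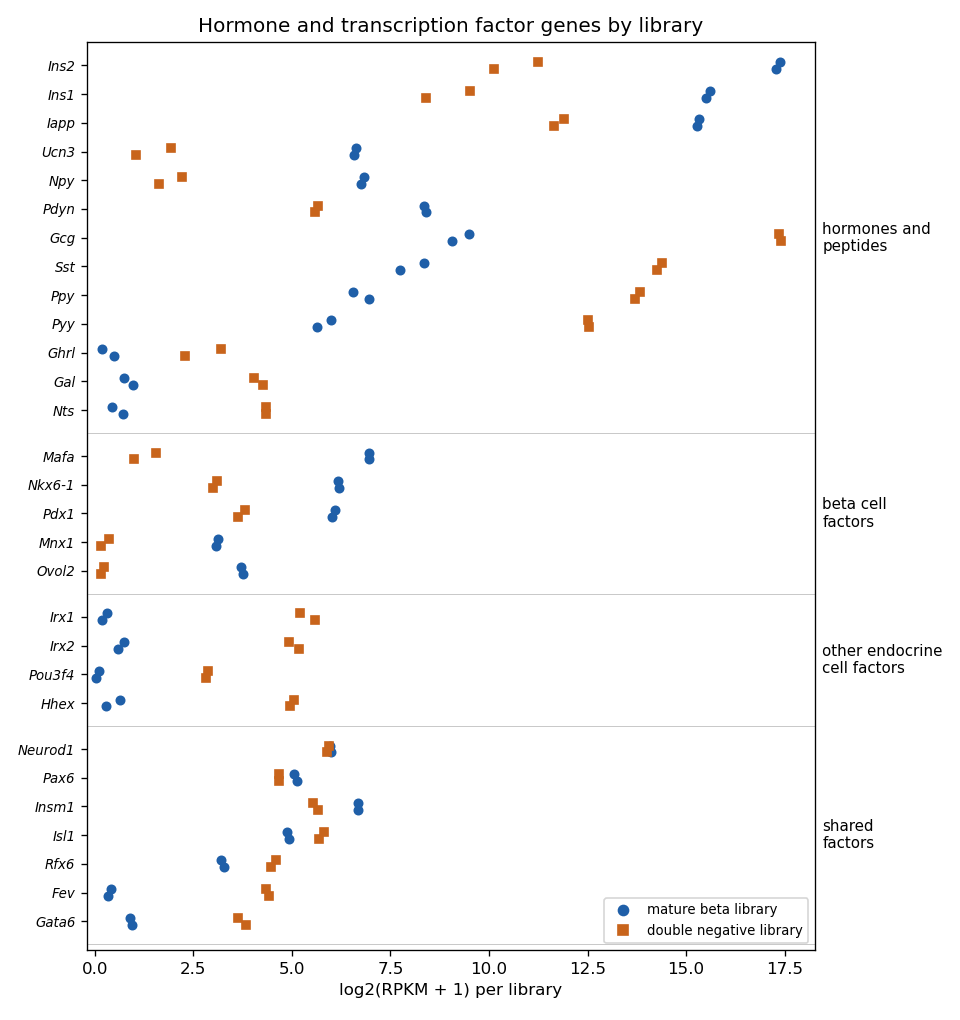
Log2(RPKM + 1) in each of the 4 libraries (x axis) for hormone genes and transcription factors of islet cells (y axis), with a circle per mature and a square per double negative library. Points of the 2 groups lie apart for the insulin genes, Mafa, Gcg, Sst and Irx1, and close together for Neurod1.

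Transcription factors that maintain beta cells were higher in mature cells. Of 8 listed, all were tested, 7 rose and 1 fell, with a median difference of 2.59, where 31.4% of all tested genes rose and 39.7% fell. Mafa (ENSMUSG00000047591.5, chromosome 15, 75745490 to 75748228, minus strand, GRCm38), an activator of insulin transcription that appears late in beta cell maturation, measured 123 and 122 RPKM in mature cells against 1.007 and 1.96 RPKM in double negative cells. Its mean was 82.7-fold higher in mature cells, with a difference of 5.66 (SE 0.16) and a limma adjusted p = 8.2e-07. Nkx6-1, which represses other islet fates in beta cells, measured 72.5 and 71.3 RPKM in mature cells against 6.96 and 7.50 RPKM in double negative cells, a difference of 3.15 (SE 0.05). Pdx1, a regulator of the pancreas and of insulin, measured 63.7 and 67.7 RPKM in mature cells against 11.3 and 12.9 RPKM in double negative cells, a difference of 2.35 (SE 0.07), and so was closer between the groups than Mafa was. Ovol2, a zinc finger factor of epithelia, rose by 3.55, and Mnx1, a homeodomain factor needed for beta cells, by 2.84. Glis3, a regulator of insulin, rose by 0.72. The orphan nuclear receptor gene Esrrg went the other way, at 1.27 and 1.44 RPKM in mature cells against 2.60 and 2.68 RPKM in double negative cells, a difference of -0.63 (SE 0.07).

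Factors of alpha, delta and PP cells were the mirror image. Of 8 listed, 6 were tested and all 6 fell, with a median difference of -4.47, and Irx5 and Pou3f1 were under the filter. Irx1 and Irx2, Iroquois factors of alpha cells, measured 0.142 and 0.236 and 0.514 and 0.659 RPKM in mature and 46.9 and 36.1 and 35.03 and 29.3 RPKM in double negative cells. Hhex, required for delta cells, measured 0.220 and 0.544 RPKM in mature cells against 29.9 and 32.4 RPKM in double negative cells, a difference of -4.55 (SE 0.12), and Pou3f4, a POU factor of alpha cells, had a difference of -2.78 (SE 0.07). Irx1, Irx2, Hhex and Pou3f4 were each below 1 RPKM in both mature libraries, and so passed the filter through the double negative libraries alone.

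The factors that islet cells share were less divided. Of 23 listed, 21 were tested, of which 6 rose, 12 fell and 3 did not pass, with a median of -0.33. The share that rose was near the 31.4% of all tested genes, and 39.7% of those fell. Neurod1, a bHLH factor of all endocrine cells, measured 62.2 and 61.6 RPKM in mature cells against 58.6 and 60.5 RPKM in double negative cells. Its difference was 0.06 with a 95% interval from -0.05 to 0.16. Insm1, a zinc finger factor of endocrine differentiation, rose by 1.07 from 50.02 and 45.6 to 101 and 101 RPKM, and Pax6, which activates several islet hormone genes, rose by 0.42. Isl1 fell with a difference of -0.84, and Rfx6 and Prox1, needed for islet development, with -1.30 and -1.36. Larger falls were those of Fev, a serotonergic factor also found in endocrine progenitors (0.261 and 0.323 RPKM in mature cells against 20.5 and 19.2 RPKM in double negative cells), of Gata6 (0.937 and 0.864 RPKM in mature cells against 13.3 and 11.5 RPKM in double negative cells) and of Neurog3, the progenitor switch for the endocrine lineage (0.110 and 0.121 RPKM in mature cells against 4.56 and 4.77 RPKM in double negative cells). Fev, Gata6 and Neurog3 were each below 1 RPKM in both mature libraries, and so passed the filter through the double negative libraries alone. Their levels in double negative cells were below those of Neurod1, and which cells held them was not tested. Sox9, a factor of ducts and progenitors, fell with -1.49 and lay between 0.0306 and 2.31 RPKM over the 4 libraries.

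Genes of beta cell maturity were mostly higher in mature cells. All 14 listed genes were tested, and 13 rose and 1 fell, with a median of 3.98, against 31.4 and 39.7% of all tested genes. The rises include Ucn3, whose promoter drives a reporter of the sort and whose direction is therefore no finding. Among the 14 listed genes G6pc2, an islet glucose-6-phosphatase, measured 1747 and 1759.7 RPKM in mature cells against 20.2 and 43.3 RPKM in double negative cells. Its difference was 5.84 (SE 0.30). Its level in mature cells was almost equal in the 2 libraries, and in double negative cells replicate 2 was higher than replicate 1. Slc2a2, the glucose transporter GLUT2, measured 26.6 and 28.7 RPKM in mature cells against 0.480 and 1.12 RPKM in double negative cells, a difference of 4.02 (SE 0.16). Tmem215, a membrane protein of the endoplasmic reticulum, measured 86.8 and 85.8 RPKM in mature cells against 0.736 and 1.44 RPKM in double negative cells, and Prlr, the prolactin receptor through which pregnancy acts on beta cells, 32.8 and 33.3 RPKM in mature cells against 0.378 and 0.817 RPKM in double negative cells. Cox6a2, a subunit of cytochrome c oxidase otherwise known from muscle, measured 52.1 and 50.4 RPKM in mature cells against 1.60 and 1.62 RPKM in double negative cells, a difference of 4.33 (SE 0.05). Nptx2, a neuronal pentraxin, rose by 2.93 and Ero1lb, the oxidase of disulfide bonds in proinsulin, by 3.94. Spp1, osteopontin, was abundant in both groups, at 748 and 821 RPKM in mature cells against 619.7 and 624 RPKM in double negative cells. It rose by 0.33, a call that was lost without mature replicate 2, where the difference was 0.27. Gpr119, a receptor for lipid amides, was the one member that fell, at 1.51 and 1.28 RPKM in mature cells against 22.8 and 23.9 RPKM in double negative cells, a difference of -3.35 (SE 0.07).

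Beyond these, the 15 largest rises held several genes of release and membrane. Pcsk1, the convertase that opens proinsulin, measured 395 and 393 RPKM in mature cells against 6.54 and 12.7 RPKM in double negative cells, a difference of 5.28 (SE 0.25). Sytl4, granuphilin, which docks insulin granules, measured 74.1 and 73.7 RPKM in mature cells against 0.539 and 1.47 RPKM in double negative cells, a difference of 5.26 (SE 0.20). The mature libraries were almost equal for both genes, and double negative replicate 2 was higher than replicate 1. Ttyh1, a chloride channel of the tweety family, measured 116 and 116 RPKM in mature cells against 3.34 and 4.02 RPKM in double negative cells, a difference of 4.65 (SE 0.07). The serine protease gene Prss53 and the gene Fam151a rose by 5.11 and 4.85. S100a9, a calcium-binding alarmin best known from neutrophils, measured 76.4 and 79.4 RPKM in mature cells against 1.65 and 0.927 RPKM in double negative cells, a difference of 5.13 (SE 0.14), and here double negative replicate 2 was the lower of the 2.

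Apart from hormones, the 15 largest falls included Ttr, transthyretin, a carrier of thyroid hormone that alpha cells make in quantity, at 125 and 139 RPKM in mature cells against 5252 and 4865 RPKM in double negative cells, a difference of -5.25 (SE 0.08). Rbp4, the retinol carrier known from delta cells, measured 8.84 and 11.1 RPKM in mature cells against 586 and 564 RPKM in double negative cells, a difference of -5.72 (SE 0.09). Pdk4, a kinase that shuts pyruvate dehydrogenase, measured 0.132 and 0.255 RPKM in mature cells against 66.7 and 64.4 RPKM in double negative cells, a difference of -5.80 (SE 0.07). For these genes the 2 double negative libraries lay close together and both mature libraries were far below them. Eef1a2, a tissue-restricted translation elongation factor, fell with a difference of -5.99 (SE 0.10) from a mean of 143 to 1.27 RPKM. Gpx3, a secreted glutathione peroxidase, had -5.36 (SE 0.07) and Rcn3, a calcium-binding protein of the secretory pathway, -5.34 (SE 0.11). Igkc, the constant region of immunoglobulin kappa made by B lineage cells, measured 0.0793 and 0.140 RPKM in mature cells against 69.8 and 67.0 RPKM in double negative cells, while 12 listed lymphocyte markers were all under the filter, with a summed level of 0.349 and 0.376 RPKM in mature and 1.44 and 2.36 RPKM in double negative cells. The immunoglobulin genes Ighm and Ighv1-11 lay on the same side as Igkc, at 33.3 and 20.1 and 5.42 and 18.8 RPKM in double negative cells. In mature cells Ighm measured 0.0447 and 0 RPKM, and Ighv1-11 0 RPKM in both libraries. The part of lymphocytes in these immunoglobulin values was not tested.

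**Figure D2:**
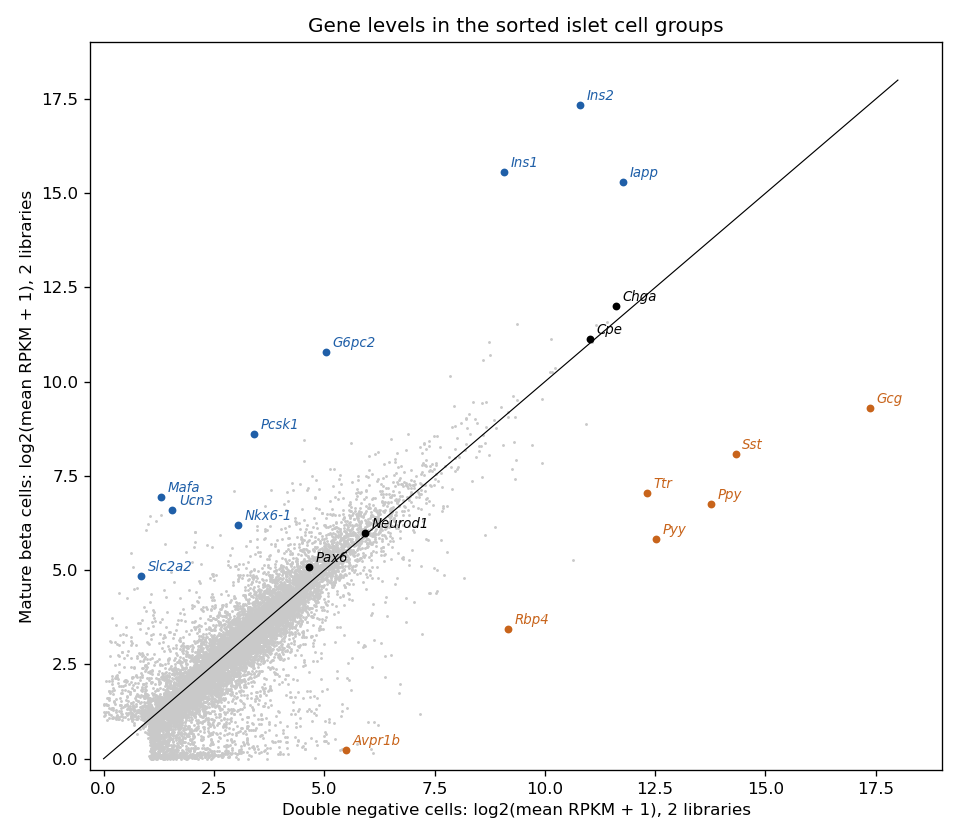
Log2(mean RPKM + 1) over the 2 libraries of double negative cells (x axis) against mature beta cells (y axis) for the 12089 tested genes, with 1 point per gene, genes of the text that were higher in mature cells named in blue, lower ones in orange and 4 genes near the diagonal in black. Most points lie near the diagonal, and Ins2 and Gcg lie farthest from it on opposite sides.

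Markers of the non-beta islet cells fell throughout. Of 13 tested alpha cell genes all 13 fell (median -3.96), of 8 delta cell genes all 8 (median -3.34) and of 4 PP and epsilon cell genes all 4 (median -4.57), against 39.7% of all tested genes. Members were listed because they are known to mark these cells, so the counts describe the sort. Among alpha cell genes Slc38a5, a glutamine transporter, measured 0.376 and 0.416 RPKM in mature cells against 32.8 and 31.1 RPKM in double negative cells, and Gc, the vitamin D binding protein, 25.8 and 27.4 RPKM in mature cells against 287 and 289 RPKM in double negative cells. Etv1, an ETS factor, had a difference of -2.81 (SE 0.06) and Slc7a2, an arginine transporter, -2.23 (SE 0.05). Among delta cell genes Ghsr, the ghrelin receptor, measured 0.114 and 0.0925 RPKM in mature cells against 7.19 and 8.16 RPKM in double negative cells and Ptprz1, a receptor phosphatase, 0.0444 and 0.0576 RPKM in mature cells against 3.50 and 4.39 RPKM in double negative cells. Casr, the calcium-sensing receptor, was the least restricted of the delta list, at 7.05 and 7.73 RPKM in mature cells against 17.6 and 18.2 RPKM in double negative cells.

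The level that remained in the other population differed from gene to gene within a cell type. Each gene's level in the lower group was taken as a percentage of its mean in the higher group, library by library. In double negative replicates 1 and 2, Ins2 stood at 0.685 and 1.47% of its mature level, Mafa at 0.822 and 1.60%, G6pc2 at 1.15 and 2.47%, Ucn3 at 1.12 and 2.95% and Slc2a2 at 1.74 and 4.04%. These genes had in common that replicate 2 was about double replicate 1. Cox6a2 stood at 3.12 and 3.15%, Ero1lb at 5.79 and 6.79%, Iapp at 7.96 and 9.44%, Glp1r at 8.71 and 10.6%, Nkx6-1 at 9.68 and 10.4%, Ffar1 at 13.96 and 13.5% and Pdx1 at 17.2 and 19.6%. Here the libraries were close to each other, and the share remaining in double negative cells was several times that of Ins2. Over genes of at least 10 RPKM in mature cells and at least 20 reads in each double negative library, the median ratio of replicate 2 to replicate 1 was 1.95 for the 15 genes that remained at under 3%, 1.18 for the 8 genes at 3 to 6%, 1.16 for 32 genes at 6 to 12% and 1.05 for 88 genes at 12 to 25%. Among genes within these limits, the excess of replicate 2 over replicate 1 was thus seen at the lowest remaining shares. Its median there was close to the ratio of Ins2, 2.14. Listed genes at under 3% but outside these limits varied. The ratio was 0.56 for S100a9 on 19 and 11 reads and 1.10 for Trpm5 on 15 and 17 reads. It was 1.55 for Ovol2, 1.60 for Gad1 and 2.26 for Mnx1.

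The same measure in the other direction gave Gcg at 0.314 and 0.426% of its double negative level in mature replicates 1 and 2, Irx1 at 0.342 and 0.568%, Ppy at 0.880 and 0.673%, Sst at 1.03 and 1.59% and the endothelial gene Cdh5 at 1.61 and 0.847%. Ttr stood at 2.47 and 2.75%, Ffar4 at 3.58 and 4.43%, Gpr119 at 6.46 and 5.50%, Gc at 8.95 and 9.49% and Slc7a2 at 20.8 and 19.4%. Within the alpha cell list alone, the share left in mature cells therefore ran from under 1% for Gcg to about 20% for Slc7a2. At the extremes, 52 genes had a mean of at least 10 RPKM in double negative and under 0.5 RPKM in mature cells, and by the same limits on the means 5 genes (Angptl7, Muc4, Ovol2, Slco1a6 and Tmigd3) showed the reverse and are named after their values were seen.

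**Figure D3:**
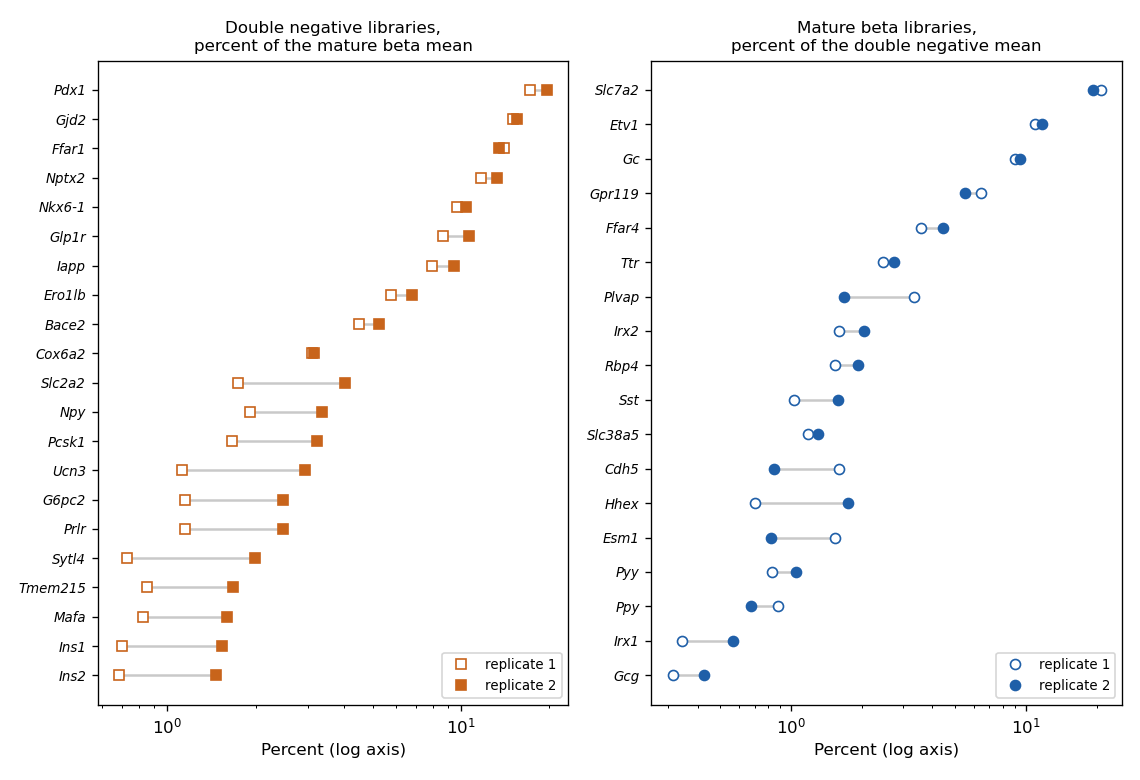
Level in each library of the lower group as a percentage of the mean in the higher group, on a log axis, for genes higher in mature and genes higher in double negative cells, with replicate 1 open and replicate 2 filled. Replicate 2 lies above replicate 1 for Ins2, Mafa, G6pc2 and Ucn3, and the points lie close together for Cox6a2, Ffar1 and Gjd2.

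Proteins that process and store hormones were present in both populations. All 20 listed genes were tested, of which 10 rose, 8 fell and 2 did not pass, with a median of 0.17. The share that fell was that of all tested genes, 39.7%, of which 31.4% rose. Cpe, the carboxypeptidase that trims prohormones, measured 2268 and 2260.1 RPKM in mature cells against 2149 and 1982 RPKM in double negative cells, a difference of 0.13 with a 95% interval from -0.05 to 0.32. Pcsk1 and Pcsk2, the convertases that cut proinsulin and proglucagon, behaved differently: Pcsk1 was the largest rise of the list, while Pcsk2 measured 528 and 540.4 RPKM in mature cells against 658 and 617 RPKM in double negative cells and fell, with a difference of -0.25. The call of Pcsk2 was lost after median-ratio rescaling (-0.12), after quantile normalization (-0.18) and without mature replicate 1 (-0.24) or 2 (-0.27). Bace2, a protease that cleaves a growth regulator on beta cells, rose by 4.17, from 6.20 and 7.21 to 137 and 138 RPKM. The granins Chgb and Scg3, which pack into granules, rose by 2.16 and 1.96. Slc30a8, the zinc transporter of insulin granules, was lower in mature cells, at 94.6 and 94.9 RPKM in mature cells against 199 and 205 RPKM in double negative cells, a difference of -1.08 (SE 0.04). Resp18, a granule protein, and Tmem27, collectrin, fell with differences of -2.07 (SE 0.06) and -2.09 (SE 0.07), and Pcsk1n, an inhibitor of Pcsk1, with -1.55 (SE 0.18).

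Of the exocytosis machinery 28 of 31 genes were tested, and 17 rose, 9 fell and 2 did not pass, with a median of 0.40, beside background shares of 31.4 and 39.7%. The SNARE genes were close between groups: Snap25 rose by 0.58 and Vamp2 by 0.47, whereas Stx1a, the syntaxin of the plasma membrane, fell from 12.9 and 12.5 to 4.27 and 4.29 RPKM, a difference of -1.37 (SE 0.06). Among synaptotagmins, the calcium sensors of release, Syt4 and Syt13 rose by 2.57 and 1.06, and Syt9 fell with -1.44. Syt7, a main calcium sensor of insulin release, measured 61.3 and 61.4 RPKM in mature cells against 48.7 and 46.4 RPKM in double negative cells and rose by 0.36. Stxbp5l, tomosyn-2, an inhibitor of release, fell with -1.76 (SE 0.08) and Cplx2, a complexin, with -1.02 (SE 0.05). Vamp3 measured 28.7 and 28.2 RPKM in mature cells against 28.0 and 28.5 RPKM in double negative cells and did not pass, with a 95% interval of its difference from -0.10 to 0.12.

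Glucose uptake and use differed in which isoform was present. Of 29 listed genes 28 were tested, of which 18 rose, 7 fell and 3 did not pass, with a median of 0.53, beside 31.4% rises and 39.7% falls over all tested genes. Transporters divided clearly. Slc2a2 and Slc2a1 (GLUT1) were higher in mature cells, the latter at 38.2 and 35.7 RPKM in mature cells against 14.3 and 13.7 RPKM in double negative cells, a difference of 1.34 (SE 0.05), while Slc2a3 (GLUT3) was nearly restricted to double negative cells, at 0.0291 and 0.0412 RPKM in mature cells against 5.85 and 5.07 RPKM in double negative cells, a difference of -2.64 (SE 0.08). Hk1, the hexokinase of high affinity that beta cells silence, measured 0.232 and 0.310 RPKM in mature cells against 8.09 and 7.14 RPKM in double negative cells, a difference of -2.76 (SE 0.08). Hexokinase 1 was thus found in the double negative libraries, with almost none in mature cells. Pcx, pyruvate carboxylase, which feeds the mitochondrial cycle, rose by 2.15, from 7.09 and 6.60 to 33.2 and 34.2 RPKM, and Pkm and Pfkp of glycolysis rose by 0.91 and 1.21. Slc16a1, the monocarboxylate carrier, fell with -1.09 (SE 0.07). Gpd2 of the glycerol phosphate shuttle measured 17.8 and 18.4 RPKM in mature cells against 18.5 and 19.1 RPKM in double negative cells and did not pass, with a 95% interval from -0.17 to 0.07. Eno1, Pgk1 and Gapdh, which have many near-identical copies in the genome, are uncertain.

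Among 20 tested genes of amino acid transport and use, 11 rose, 7 fell and 2 did not pass, with a median of 0.35. Enzymes that make serine and asparagine rose, namely Phgdh (14.9 and 16.2 RPKM in mature cells against 2.94 and 3.38 RPKM in double negative cells), Psat1 (74.7 and 71.4 RPKM in mature cells against 23.2 and 23.9 RPKM in double negative cells) and Asns (236 and 233 RPKM in mature cells against 85.7 and 88.1 RPKM in double negative cells), with differences of 1.99, 1.59 and 1.42. Carriers diverged: Slc7a1 and Slc7a5 rose by 1.30 and 1.20, and Slc38a5, Slc7a2 and Slc7a8 fell with -4.56, -2.23 and -1.65. Glud1, glutamate dehydrogenase, which passes glutamate into the mitochondrial cycle, fell with -1.01 (SE 0.04).

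Receptors gave clear divisions. In the group of incretin, glucagon and inhibitory receptors, 10 of 18 genes in the table were tested, and 7 rose and 3 fell, with a median of 0.58. Glp1r, the receptor of the incretin GLP-1, measured 73.7 and 76.0 RPKM in mature cells against 6.52 and 7.97 RPKM in double negative cells, a difference of 3.21 (SE 0.08). Gcgr, the glucagon receptor, had a lower level than Glp1r but rose as well, at 3.30 and 3.23 RPKM in mature cells against 0.294 and 0.537 RPKM in double negative cells, a difference of 1.60 (SE 0.10), and Gipr, the receptor of the other incretin, measured 8.19 and 7.43 RPKM in mature cells against 4.06 and 4.52 RPKM in double negative cells and rose by 0.74. All receptors of the 2 incretins and of glucagon were thus higher in mature cells, with the order of levels Glp1r, Gipr, Gcgr in mature cells on the RPKM scale. Adra2a, the adrenergic receptor that stops insulin release, measured 63.8 and 63.4 RPKM in mature cells against 2.91 and 3.46 RPKM in double negative cells, a difference of 3.95 (SE 0.07). Galr1, a galanin receptor, rose by 2.86.

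The somatostatin receptors were divided between populations. Sstr3 was the main one in mature cells, at 35.01 and 34.9 RPKM in mature cells against 26.9 and 24.7 RPKM in double negative cells, and differed by 0.43 (SE 0.05). Sstr2 measured 0.0787 and 0.174 RPKM in mature cells against 15.9 and 14.3 RPKM in double negative cells, a difference of -3.84 (SE 0.08) on 4 and 10 reads in mature cells, and Sstr1 measured 0.0412 and 0.0729 RPKM in mature cells against 4.59 and 4.34 RPKM in double negative cells. Double negative cells therefore held Sstr3, Sstr2 and Sstr1, and mature cells mostly Sstr3, while Sstr4 and Sstr5 were under the filter in both.

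Of 32 other receptors 19 were tested, and 10 rose, 8 fell and 1 did not pass, with a median of 0.55. Lipid receptors stood on opposite sides. Ffar1, for long-chain fatty acids, measured 46.8 and 47.5 RPKM in mature cells against 6.58 and 6.36 RPKM in double negative cells, a rise of 2.69, whereas Ffar4, also for long-chain fatty acids, measured 0.908 and 1.12 RPKM in mature cells against 27.0 and 23.7 RPKM in double negative cells, a difference of -3.71 (SE 0.09), and Gpr119 fell as given above. Receptors for peptides of the posterior pituitary were on the double negative side, with Avpr1b (vasopressin) at 0.147 and 0.222 RPKM in mature cells against 46.8 and 42.0 RPKM in double negative cells, a difference of -5.26 (SE 0.08), and Oxtr (oxytocin) at 3.16 and 3.29 RPKM in mature cells against 47.8 and 44.3 RPKM in double negative cells, a difference of -3.48 (SE 0.06). Chrm3, the muscarinic receptor of beta cells, measured 12.4 and 11.9 RPKM in mature cells against 1.13 and 1.31 RPKM in double negative cells, a rise of 2.57. Igf1r, the receptor of insulin-like growth factor, measured 138 and 142 RPKM in mature cells against 11.02 and 14.7 RPKM in double negative cells, a difference of 3.36 (SE 0.12), while Insr, the insulin receptor, measured 8.65 and 8.30 RPKM in mature cells against 7.64 and 8.20 RPKM in double negative cells. Insr did not pass, with a 95% interval from -0.06 to 0.24, so that of the 2 related receptors the first was far higher in mature cells and for the second no difference was detected. Gabbr2, a subunit of the GABA-B receptor, rose by 3.58 and its partner Gabbr1 fell with -0.81 (SE 0.08).

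**Figure D4:**
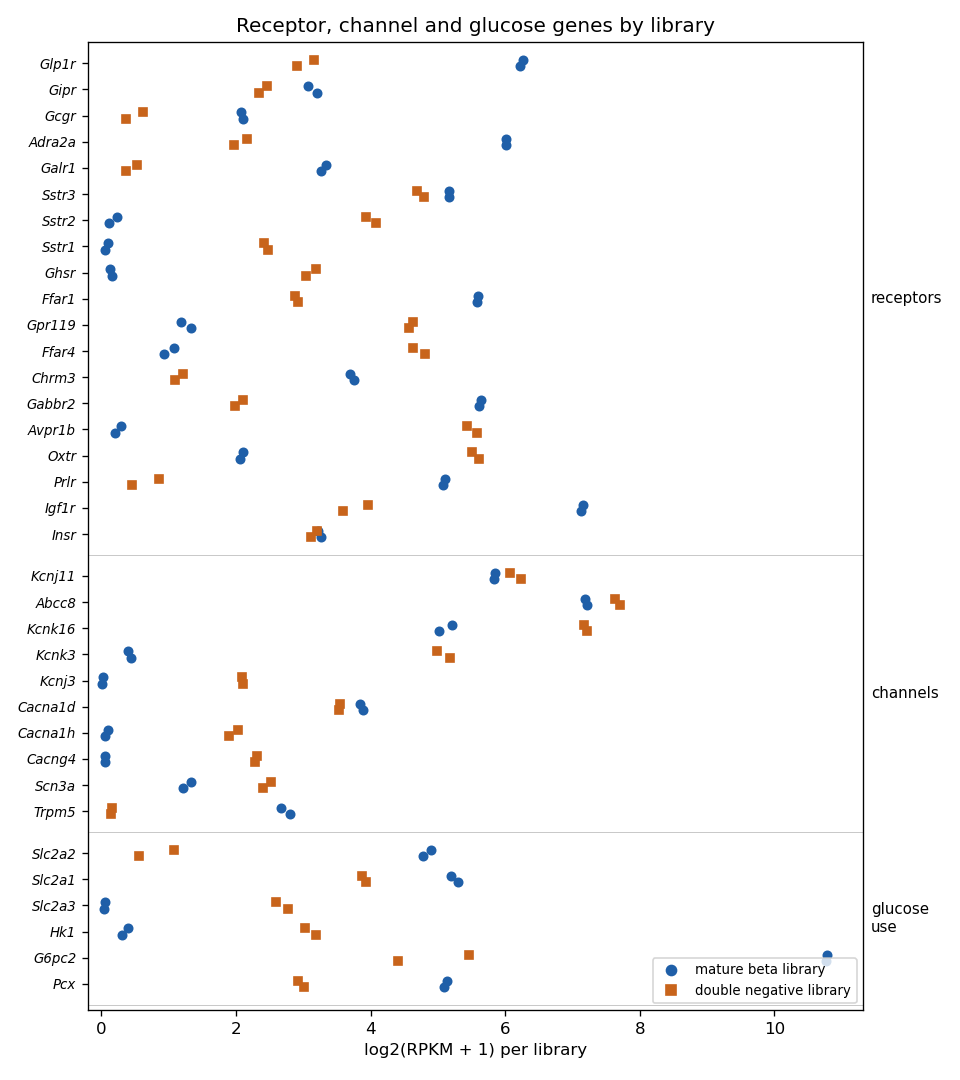
Log2(RPKM + 1) in each of the 4 libraries (x axis) for receptors, ion channels and genes of glucose use (y axis), with a circle per mature and a square per double negative library. Glp1r, Adra2a and Trpm5 lie higher in mature and Sstr2, Avpr1b and Kcnk3 higher in double negative libraries, and Kcnj11 and Abcc8 lie close together.

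Ion channels were divided. Of 38 listed, 34 were tested, of which 7 rose, 22 fell and 5 did not pass, with a median of -0.38, against 31.4% of all tested genes that rose and 39.7% that fell. Among the 16 that reached 5 RPKM in at least 2 libraries, 6 rose and 8 fell, with a median of -0.13, so the surplus of falls lay in channels of low level, which could pass the filter through the double negative libraries alone. Subunits of the ATP-sensitive potassium channel, Kcnj11 and Abcc8, which couple glucose use to membrane voltage, were near each other in the 2 populations, Kcnj11 at 56.0 and 56.5 RPKM in mature cells against 74.3 and 66.0 RPKM in double negative cells and Abcc8 at 147 and 145 RPKM in mature cells against 207 and 197 RPKM in double negative cells, with differences of -0.31 (SE 0.06) and -0.46 (SE 0.05). The call of Kcnj11 was lost after median-ratio rescaling, at -0.18. Background potassium channels were higher in double negative cells: Kcnk3 (TASK-1) measured 0.361 and 0.309 RPKM in mature cells against 35.4 and 30.8 RPKM in double negative cells, a difference of -4.67 (SE 0.08), and Kcnk16 (TALK-1) 31.2 and 35.9 RPKM in mature cells against 148 and 143 RPKM in double negative cells, a difference of -2.09 (SE 0.07). Among voltage-gated calcium channels the L-type gene Cacna1d rose by 0.32, and the T-type genes Cacna1g and Cacna1h, at 0.0416 and 0.0405 and 0.0389 and 0.0764 RPKM in mature cells, measured 1.83 and 1.71 and 2.71 and 3.07 RPKM in double negative cells. Sodium channel genes Scn3a and Scn9a fell with -1.19 (SE 0.08) and -0.62 (SE 0.07), and Kcnj3, a channel opened by inhibitory G proteins, with -2.08 (SE 0.07). Trpm5, a calcium-activated cation channel, was on the mature side, at 5.98 and 5.35 RPKM in mature cells against 0.106 and 0.117 RPKM in double negative cells, a difference of 2.58 (SE 0.08).

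Of genes for transmitters, 12 of 26 were tested, and 7 rose and 5 fell. Gad1, which makes GABA, measured 7.83 and 7.35 RPKM in mature cells against 0.101 and 0.161 RPKM in double negative cells, a rise of 2.93, and Grin1, the shared subunit of NMDA receptors, 6.27 and 6.31 RPKM in mature cells against 0.421 and 0.503 RPKM in double negative cells, a rise of 2.32. The AMPA receptor genes Gria3 and Gria2 fell with -2.53 (SE 0.08) and -1.76 (SE 0.09). Another glutamate receptor gene, Grik5, fell with -1.20. In mature cells Gria3 stood at 7.62 and 8.23% of its double negative mean of 8.87 RPKM, and Gria2 at 5.72 and 4.64% of 2.89 RPKM. Grin1 thus passed the filter through the mature libraries alone, and Gria2 and Gria3 through the double negative libraries alone. These are single genes and do not describe receptor classes. In cAMP and G protein signalling 23 of 26 genes were tested, of which 10 rose, 9 fell and 4 did not pass. The regulatory subunit of protein kinase A Prkar1a rose by 1.42, from 243 and 246 to 662 and 649 RPKM, and the catalytic subunit Prkaca measured 53.8 and 52.7 RPKM in mature cells against 55.0 and 51.8 RPKM in double negative cells, with a 95% interval of its difference from -0.12 to 0.11. Gng12, a G protein gamma subunit, rose by 2.58, Crem, a cAMP-responsive factor, by 1.47, and Pde4d, a phosphodiesterase, fell with -1.35 (SE 0.07).

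Genes of protein folding in the endoplasmic reticulum were nearly all higher in mature cells. All 31 listed genes were tested, and 27 rose, 0 fell and 4 did not pass, with a median of 0.84, and 12 of them rose by at least 1 on the log2 scale, where 5.92% of all tested genes did. The largest rises were those of stress-responsive members. Trib3, a pseudokinase induced by stress, measured 108 and 106 RPKM in mature cells against 16.9 and 15.3 RPKM in double negative cells, a difference of 2.66 (SE 0.06). Atf5 and Ddit3 (CHOP), transcription factors of the same response, rose by 2.03 and 1.86, Edem1, which sends misfolded proteins to degradation, by 1.96, and Ppp1r15a, which restores translation, by 1.74. Chaperones rose less: Hspa5 (BiP) measured 708 and 696 RPKM in mature cells against 403 and 410.2 RPKM in double negative cells, a rise of 0.79. P4hb, a disulfide isomerase, rose by 1.10 and Manf, a secreted protective factor, by 0.36. Canx, a chaperone of glycoproteins, was among the members that did not pass, at 135 and 131 RPKM in mature cells against 135 and 144 RPKM in double negative cells. With quantile normalization and with rescaling to the total without the 10 highest genes, 23 of the 31 rose and 3 fell.

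The machinery that brings secreted proteins into the endoplasmic reticulum rose by smaller steps. Of 22 listed genes 21 were tested, of which 16 rose, 1 fell and 4 did not pass, with a median of 0.30, and none changed by 1 on the log2 scale. Srpr, the receptor of the signal recognition particle, measured 191 and 187 RPKM in mature cells against 99.5 and 97.3 RPKM in double negative cells, a rise of 0.94, Sec11c, a signal peptidase subunit, rose by 0.86 and Sec61a1, the pore, by 0.51. The number that rose depended on the scaling, with 10 under quantile normalization.

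Genes held silent in beta cells were lower in mature cells. Of 23 listed genes of this kind 17 were tested, of which 16 fell, 0 rose and 1 did not pass, with a median of -1.10, and 12 fell by at least 1 on the log2 scale, against 9.98% of all tested genes. Members of low level could pass the filter through the double negative libraries alone and then could only fall, so the count is a description. Without a filter 23 were tested, of which 19 fell and 1 rose. At a minimum of 5 RPKM only 4 were tested, and all 4 fell. Igfbp4, a binding protein of insulin-like growth factors, measured 0.200 and 0.203 RPKM in mature cells against 24.6 and 20.7 RPKM in double negative cells, a difference of -4.29 (SE 0.09). Oat, ornithine aminotransferase, measured 1.64 and 1.85 RPKM in mature cells against 43.2 and 39.7 RPKM in double negative cells, a difference of -3.95 (SE 0.07), and Acot7, an acyl-CoA thioesterase, 0.179 and 0.421 RPKM in mature cells against 4.25 and 4.83 RPKM in double negative cells. Ldha, lactate dehydrogenase A, a classic member of such lists, measured 16.9 and 17.2 RPKM in mature cells against 19.5 and 19.96 RPKM in double negative cells, a difference of -0.20 (SE 0.05). The call of Ldha was lost after median-ratio rescaling (-0.07) and without mature replicate 1 (-0.19) or 2 (-0.21). Several genes of this list are also made by the vessel and stromal cells described below, whose part in these differences was not tested.

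Imprinted genes held some wide contrasts, of which that of Peg10 was the widest. Of 19 listed 15 were tested, of which 2 rose, 8 fell and 5 did not pass, with a median of -0.52. The number called was near the background, where 71.1% of genes passed, 31.4% as rises and 39.7% as falls. Peg10, derived from a retrotransposon, measured 0.177 and 0.425 RPKM in mature cells against 53.1 and 52.7 RPKM in double negative cells, a difference of -5.38 (SE 0.10), and Sgce, its neighbour that shares the imprinted domain, 0.0238 and 0.0527 RPKM in mature cells against 5.42 and 5.51 RPKM in double negative cells. Mest, a hydrolase-like protein, and Zim1, a zinc finger gene, fell with -3.53 (SE 0.07) and -3.07 (SE 0.07). Rasgrf1, an exchange factor for Ras, measured 36.3 and 35.8 RPKM in mature cells against 2.71 and 3.30 RPKM in double negative cells, a difference of 3.21 (SE 0.08). Both directions thus occurred among imprinted genes.

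In adhesion, coupling and guidance 22 of 30 genes were tested, and 7 rose, 14 fell and 1 did not pass, with a median of -0.53. The share of rises was near the 31.4% of all tested genes, of which 39.7% fell. Gjd2, connexin 36, the gap junction protein that couples beta cells electrically, measured 67.7 and 65.5 RPKM in mature cells against 10.01 and 10.3 RPKM in double negative cells, a difference of 2.60 (SE 0.05), and Gja1, connexin 43, measured 0.0951 and 0.0480 RPKM in mature cells against 4.86 and 5.99 RPKM in double negative cells, a difference of -2.58 (SE 0.10). The 2 connexins were thus on opposite sides. Robo1, a guidance receptor, rose by 2.12, and the contact protein gene Cntnap2 by 1.76. Cd24a, a surface protein of progenitors and many epithelia, fell with -2.57 (SE 0.10), and the tight junction gene Cldn4 with -1.44 (SE 0.04). Cdh1, E-cadherin, measured 76.3 and 75.1 RPKM in mature cells against 68.5 and 73.8 RPKM in double negative cells and did not pass, with a 95% interval from -0.03 to 0.21.

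Genes of angiogenic and growth factor signals were mostly lower in mature cells. Of 30 listed 21 were tested, of which 3 rose, 17 fell and 1 did not pass, with a median of -1.44, against 31.4 and 39.7% of all tested genes that rose and fell. Members of low level in mature cells could pass the filter through the double negative libraries alone, so the count is a description. At a minimum of 5 RPKM 15 were tested, of which 3 rose and 11 fell. The rises were Vegfa, which recruits islet capillaries, at 95.2 and 89.6 RPKM in mature cells against 66.8 and 64.6 RPKM in double negative cells, Vegfb by 0.68 and Dll1, a Notch ligand, by 0.92. Vegfa was among the most abundant of the list in both populations and differed by 0.49 (SE 0.05). Igfbp3 and Igfbp5 measured 28.0 and 27.4 and 36.7 and 44.5 RPKM in double negative and 0.256 and 0.333 and 1.41 and 0.999 RPKM in mature cells. Inhbb, a subunit of activin B, measured 0.218 and 0.280 RPKM in mature cells against 14.8 and 14.7 RPKM in double negative cells, a difference of -3.66 (SE 0.07), and Angpt2, an angiopoietin of vessel remodelling, 2.03 and 2.09 RPKM in mature cells against 20.4 and 23.2 RPKM in double negative cells. Dll4, Angpt2 and Igfbp3 are also products of endothelial cells, whose markers are given next.

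**Figure D5:**
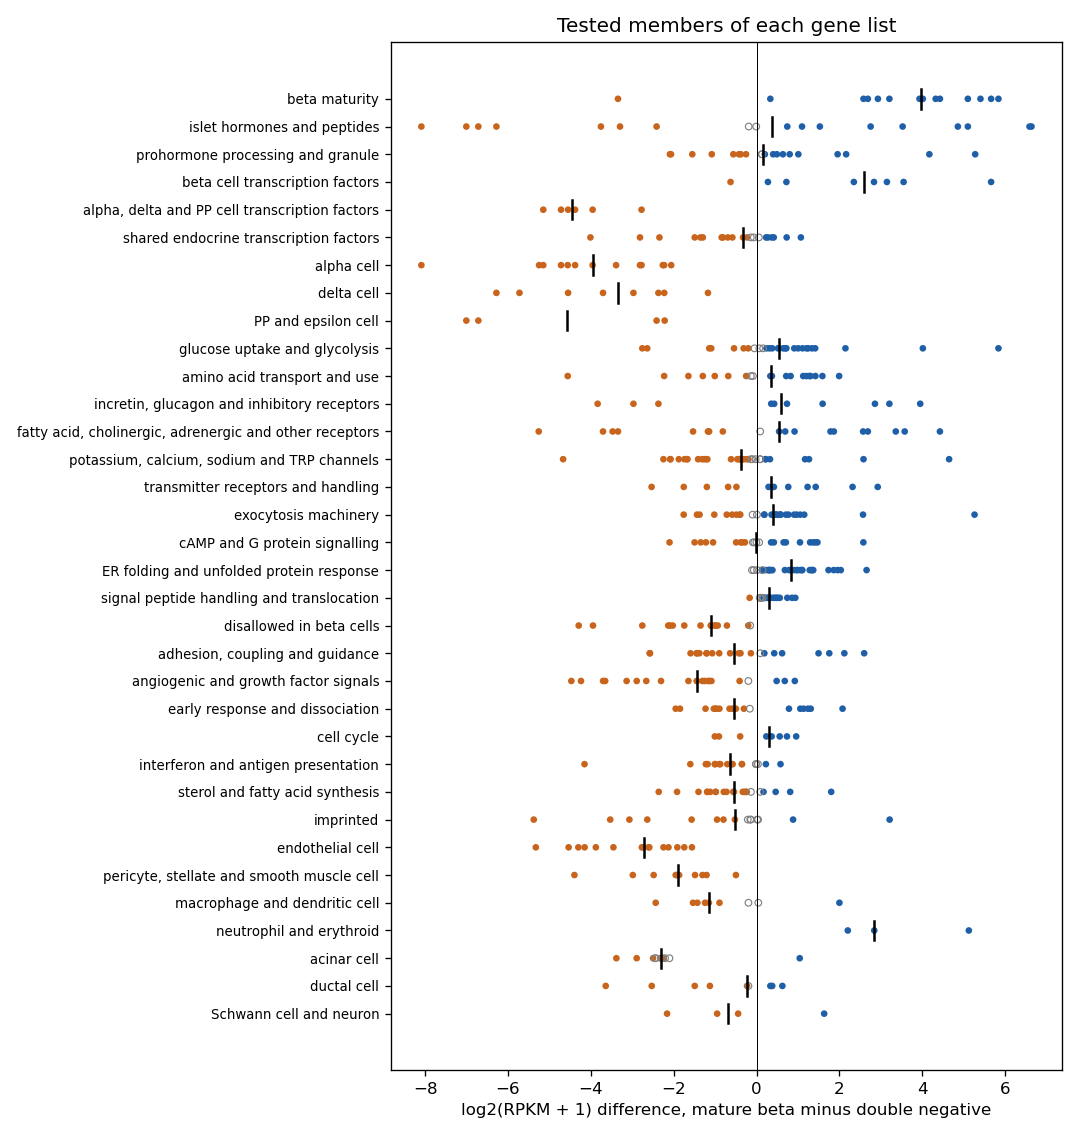
Log2(RPKM + 1) difference, mature minus double negative, of each tested member (points, open where the gene did not pass) and the median (vertical bar) for each gene list. Beta maturity genes and beta cell transcription factors lie mostly to the right of 0, alpha, delta and PP cell lists to the left, and the folding list mostly to the right.

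Markers of other islet cell types were higher in double negative cells. Such markers could pass the filter through the double negative libraries alone. Of 15 tested endothelial markers all 15 fell (median -2.73), and the summed level of the 16 listed was 5.14 and 4.06 RPKM in mature and 234 and 247 RPKM in double negative cells. Esm1, endocan, measured 1.13 and 0.604 RPKM in mature cells against 70.5 and 76.1 RPKM in double negative cells, a difference of -5.33 (SE 0.13), and Cdh5, VE-cadherin, 0.497 and 0.262 RPKM in mature cells against 31.1 and 30.7 RPKM in double negative cells. Of 10 tested pericyte, stellate and smooth muscle markers all 10 fell, with summed levels of 2.01 and 1.89 RPKM in mature and 59.4 and 67.7 RPKM in double negative cells, where Sparc (0.526 and 0.487 RPKM in mature cells against 29.9 and 31.6 RPKM in double negative cells) led. Compared with Gcg the vessel genes were a small part of the double negative libraries, and Pdgfra, which defines fibroblasts, was at most 0.255 RPKM in any library.

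Immune markers were few. Of 15 listed for macrophages and dendritic cells 9 were tested, and 1 rose, 6 fell and 2 did not pass, with summed levels of 63.4 and 64.3 RPKM in mature and 55.9 and 60.3 RPKM in double negative cells. In mature cells these sums rest on a pair of genes, Cd68 (42.2 and 42.3 RPKM in mature cells against 10.4 and 9.24 RPKM in double negative cells) and C1qa (15.9 and 16.5 RPKM in mature cells against 15.8 and 15.5 RPKM in double negative cells), while the defining genes Csf1r and Adgre1 stayed under 0.6 RPKM in all 4 libraries. Cd74, the invariant chain of antigen presentation, added to the sums of double negative cells and measured 2.54 and 2.33 RPKM in mature cells against 16.1 and 19.2 RPKM in double negative cells. All 3 tested genes of the neutrophil and erythroid list rose, namely S100a9, S100a8 and Lcn2 (lipocalin 2, 158 and 153 RPKM in mature cells against 20.2 and 21.5 RPKM in double negative cells), in libraries where Ly6g, Mpo and Elane, which define neutrophils, had 0 reads.

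Acinar enzymes set the 2 double negative libraries apart. The 15 listed genes summed to 219 and 160 RPKM in mature cells, 308 RPKM in double negative replicate 1 and 2396 RPKM in replicate 2. Ctrb1, chymotrypsinogen, measured 85.2 and 54.7 RPKM in mature cells against 107 and 822 RPKM in double negative cells, a difference of -2.10 that did not pass (limma adjusted p = 0.062) and was -0.64 without double negative replicate 2. Of 12 tested, 1 rose, 6 fell and 5 did not pass, and over the other settings the number that fell ran from 1 to 11. The size of the difference for the acinar list thus depended on double negative replicate 2. The median of the list was -2.31, and -0.81 without that library. The rise was Bhlha15 (Mist1), a secretory cell factor, at 24.8 and 24.2 RPKM in mature cells against 11.8 and 10.97 RPKM in double negative cells. Of 9 tested duct markers 3 rose, 5 fell and 1 did not pass. Among them Tspan8, a tetraspanin, measured 4.63 and 4.14 RPKM in mature cells against 57.8 and 75.6 RPKM in double negative cells and Muc1, a mucin, 1.15 and 0.985 RPKM in mature cells against 11.1 and 10.8 RPKM in double negative cells, while Krt7 rose by 0.62 and Cftr was under 0.2 RPKM in all libraries.

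Early response genes, which dissociation can induce, differed in both directions. Of 19 listed 18 were tested, of which 6 rose, 11 fell and 1 did not pass, with a median of -0.54. The share of rises was near the 31.4% of all tested genes, of which 39.7% fell. Jun measured 24.9 and 22.9 RPKM in mature cells against 101 and 89.9 RPKM in double negative cells, a difference of -1.95 (SE 0.07), and Zfp36, which destabilises cytokine messages, fell with -1.85 (SE 0.05). Nr4a1, an orphan receptor induced by calcium and cAMP, went the other way, at 34.95 and 34.3 RPKM in mature cells against 7.36 and 7.52 RPKM in double negative cells, a difference of 2.08 (SE 0.05). Fos was high in all 4 libraries, at 107 and 98.7 RPKM in mature cells against 131 and 124 RPKM in double negative cells.

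Interferon and antigen presentation genes were mostly lower in mature cells, with 2 rises, 13 falls and 3 not passed among 18 tested and a median of -0.65, where 31.4% of all tested genes rose and 39.7% fell. Ifitm3, an antiviral membrane protein, measured 0.808 and 1.10 RPKM in mature cells against 32.1 and 35.4 RPKM in double negative cells, a difference of -4.15 (SE 0.09), and B2m, the light chain of class I molecules, 343 and 329.8 RPKM in mature cells against 634 and 621 RPKM in double negative cells, a difference of -0.90 (SE 0.05). The class I heavy chain gene H2-D1 measured 291 and 289 RPKM in mature cells against 309 and 277 RPKM in double negative cells and did not pass, with a 95% interval from -0.17 to 0.14. Sterol and fatty acid genes showed 4 rises, 16 falls and 2 not passed among 22 tested, with a median of -0.55. Scd1, a desaturase, fell with -2.36 (SE 0.08) and Hmgcs1, an early enzyme of cholesterol synthesis, with -1.40 (SE 0.05). Sqle, squalene epoxidase, measured 81.4 and 78.5 RPKM in mature cells against 22.1 and 22.3 RPKM in double negative cells and was the largest rise, by 1.80. Of 19 cell cycle genes 8 were tested, 5 rose and 3 fell, and Mki67 and Top2a, which mark dividing cells, were between 0.121 and 0.314 RPKM in all libraries.

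Over all 12089 tested genes, 8593 (71.1%) passed at an adjusted p under 0.05 by limma, 3791 higher and 4802 lower in mature cells. Far fewer were large: 716 rose and 1206 fell by at least 1 on the log2 scale, which is 5.92 and 9.98% of the tested genes, 173 rose and 367 fell by at least 2, and 19 rose and 46 fell by at least 4. Within 0.5 of no difference lay 7574 genes (62.7%). The groups did not overlap for 10373 genes (85.8%). The direction of small differences depended on the scaling. Of the calls 44.1% were higher in mature cells as deposited, 54.7% after median-ratio rescaling, which moved the median difference from -0.06 to 0.05, and 33.0% after rescaling to the total without the 10 highest genes, which moved it to -0.18. Those 10 genes, led by Gcg and Ins2, made up between 52.7 and 55.0% of summed RPKM in the 4 libraries.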

How the data were processed

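RNA of sorted cells was made into TruSeq libraries, per the labels' protocols. The authors deposited 1 table of RPKM values, whose columns carry the sample titles. Tools listed in the submitters' processing notes are STAR 2.5, featureCounts and edgeR 3.14.0, and the build is GRCm38.p4. For strand use, filters and reads with several matches the setting is not given in the sources. RPKM depends on the library's total: genes that fill much of a library lower all others. Reads were recovered from the RPKM steps with GENCODE M21 exonic lengths. Within 0.02 reads, 82.9 to 83.8% of values under 200 reads were whole per library, and 77.6% of genes were whole in all 4 libraries. Coordinates come from that annotation.

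Log2(RPKM + 1) was tested with limma 3.58.1 in R 4.3.3, with an intensity trend, group means, 2 residual degrees of freedom and 4 libraries, and Benjamini-Hochberg adjustment over 12089 genes at 0.05. The procedure was run on simulated data with the same spread for all genes and few changed genes. These settings differ from the data, so nothing is drawn from that run. Groups and replicate numbers come from the titles. No label says that replicates came from separate pools, so p-values measure the spread between these libraries. Alternatives were another pseudocount, 2 filters, 3 scalings, 6 libraries, no trend, a replicate block, leaving out each library, and voom on recovered reads, which called 5777 of 8074 genes.

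Members and lists were chosen with earlier results of these data known. The text names Ins2, Gcg, Ins1 and Ucn3, and also the 15 largest rises and the 15 largest falls past the threshold without overlap and with at least 5 RPKM in the higher group, passing over predicted genes. From each list it names up to 6 tested genes by size of difference and up to 2 that did not pass. Some genes that these rules pick are not reported here. Other members named were chosen for their known role after their values were seen. A member could pass the filter through 1 group alone, so list counts are descriptions. Promoters were matched by symbol to RefSeq's GRCm38.p6 table.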

Additional observations from a re-analysis of the deposited data

How the results depend on the processing

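Ins2, Ins1, Ucn3 and Gcg kept their direction and passed under every alternative in which they were tested, with differences from 6.09 to 7.19 for Ins2, 6.03 to 7.16 for Ins1, 4.66 to 5.76 for Ucn3 and -8.31 to -7.87 for Gcg. Ins1 was left out of the alternatives that need whole reads. The number of genes past the threshold was 8593 as reported and ran from 7044 with all 6 libraries in the fit to 9673 without a filter, apart from 5850 of 7740 genes at a minimum of 5 RPKM, 5777 by voom on recovered reads of 8074 genes, and 5681 by limma on those 8074 genes, an alternative chosen after seeing the data, in which fewer genes were tested. Leaving out a library gave 7251 to 8425. With the replicate number as a block 8444 genes passed. The numbers share no stated pool, and the replicate differences of the 2 groups correlated at -0.127 across genes, so the pairing is not established. Of 199 other genes checked in this way, 184 kept direction and call in every alternative that tested them and 10, none of which had passed, changed sign at least once. Under median-ratio rescaling these were Gpd2 (0.076), Prkaca (0.13), Canx (0.066) and H2-D1 (0.12). Under quantile normalization they were Neurod1 (-0.17), Vamp3 (-0.17) and Cdh1 (-0.14), of which all 3 then passed as lower. Under rescaling without the 10 highest genes they were Neurod1 (-0.082), Cpe (-0.0056), Vamp3 (-0.12), Insr (-0.037), Cdh1 (-0.048) and C1qa (-0.089), of which Vamp3 alone then passed as lower. Leaving out 1 library gave differences from -0.0035 to 0.024 for Vamp3, -0.046 to 0.040 for Prkaca and -0.092 to 0.062 for H2-D1. The cause of these changes was not tested. With 2 libraries a group and RPKM relative to totals filled by hormone genes, small differences depend on the scaling, which among the genes checked ended calls as large as that of Kcnj11, -0.31 as reported.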
